A study of Mus musculus with 8 samples.

Results

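Tumors that had received TP-16 together with an anti-PD-1 antibody were set against tumors that had received vehicle, which takes up 4 of the 8 arrays in the series (2 combination and 2 vehicle arrays). The arrays were chosen by their titles alone, and all 56605 gene probes of the array design entered. CT26, a line of mouse colon carcinoma cells from the BALB/c strain, had been injected under the skin of the flank. The vehicle group received neither agent. The combination group received TP-16, which the labels call BY001, at 75 mg/kg by mouth every day and anti-PD-1 antibody at 50 µg per mouse into the peritoneum 2 times a week, and fresh tumor tissue was taken after 2 weeks. The study used female BALB/c mice and names no engineered allele, so vehicle and combination mice share the strain, the implanted line and the immune system of an untransplanted host. Both groups rest on 1 cell line, and the labels and methods leave unsaid if each sample came from 1 tumor or from several pooled. The replicates are called biological in the design text, and the p-values below measure the spread between these arrays.

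Prostaglandin E2 is a lipid made by cyclooxygenases and prostaglandin E synthases. One of its receptors, EP4, coded by Ptger4, raises cyclic AMP in myeloid cells and T cells, and TP-16 blocks EP4. PD-1, coded by Pdcd1, is an inhibitory receptor of activated T cells that is engaged by the ligands PD-L1 (Cd274) and PD-L2 (Pdcd1lg2). Interferon gamma from T cells and NK cells acts on genes of antigen presentation, T-cell chemokines and PD-L1.

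A level below is a probe's log2 intensity after the 75th percentile of its array was subtracted, and a change is the combination mean minus the vehicle mean of that level. Where several probes of a gene were tested, the brightest stands for it. A probe is called dim where the scanner software did not mark it well above background, and a gene dim on both arrays of a group has only a bound there, written "at least". A gene was called if its fold was at least 2 and its limma adjusted p at most 0.05. Calls were made for 4004 of 31912 tested probes (12.5%), 40.5% of them higher, and, with 1 probe per gene, for 1198 of 21471 genes higher (5.58%) and 1850 lower (8.62%) under the combination. After quantile normalization, which gives all arrays the same distribution, 1593 genes were higher (7.42%) and 845 lower (3.94%), and 68.7% of the called probes were higher. The same call in both scalings was made for 1995 genes (9.29%), 1150 of them higher and 845 lower. The median change over all tested genes was -0.24 with the 75th percentile, -0.047 after quantile normalization and 1.07 when arrays were scaled by spike-in controls (foreign RNA added in the same amount to each sample), so that a fall is a fall relative to the other transcripts. Spike-in scaling adds the same amount to the change of every gene, so it turns the sign of any fall that is small enough. All 8 spike-in probes used were dimmer on both combination arrays than on both vehicle arrays, while the 75th percentile of the gene probes was 0.83 (log2) higher. Over the 34 gene lists used below, 730 distinct genes were tested, of which 191 were called higher and 57 lower, and 183 and 14 in both scalings. All calls after adjustment need combination replicate 2: without it limma called 0 probes, although 2999 had a 2-fold difference with an unadjusted p no higher than 0.05 (9425 with any difference). A gene counted below as passing at an unadjusted p also had a fold of 2. Over all tested genes, 943 passed in this way as higher without combination replicate 2 (4.39%) and 1318 as lower (6.14%). Of 119 called genes that the naming rule picked, 43 had a fold that moved over 1.5 times when either vehicle array was left out. Of the 38 with other tested probes, 19 had all of these called the same way. Vehicle and combination also lie in different rows and columns of the slide, so position and treatment cannot be told apart.

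Ptger4, the target of TP-16 (probe on chromosome 15, 5183422 to 5183481, in the mm9 annotation of the array), read -0.37 and 0.01 on the vehicle arrays and 1.29 and 1.87 on the combination arrays. The groups did not overlap, and Ptger4 rose by 1.77 (standard error 0.31, limma adjusted p = 0.0135), which is 3.4-fold. Both combination arrays lay above both vehicle arrays for 23.1% of all tested genes and below both for 50.4%. Pdcd1, the target of the antibody, read -0.79 and 0.9 under vehicle and 1.94 and 2.67 under the combination, a rise of 2.25 (standard error 0.55, limma adjusted p = 0.0299). The vehicle arrays differed more from each other for Pdcd1 than the combination arrays did, and vehicle replicate 2 was the nearer to the combination. Cd274, which codes PD-L1, went from 0.54 and 1.77 to 3.52 and 3.96 and rose 6.03-fold (limma adjusted p = 0.0123). Pdcd1lg2, which codes PD-L2, went from -1.87 and -1.56 to 0.57 and 1.33 and rose 6.33-fold (limma adjusted p = 0.0102). Receptor and ligands of the PD-1 axis were thus all called, in both scalings. In bulk tissue, a change in the number of cells of a type and a change in RNA per cell cannot be told apart for these or any later genes.

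**Figure D1:**
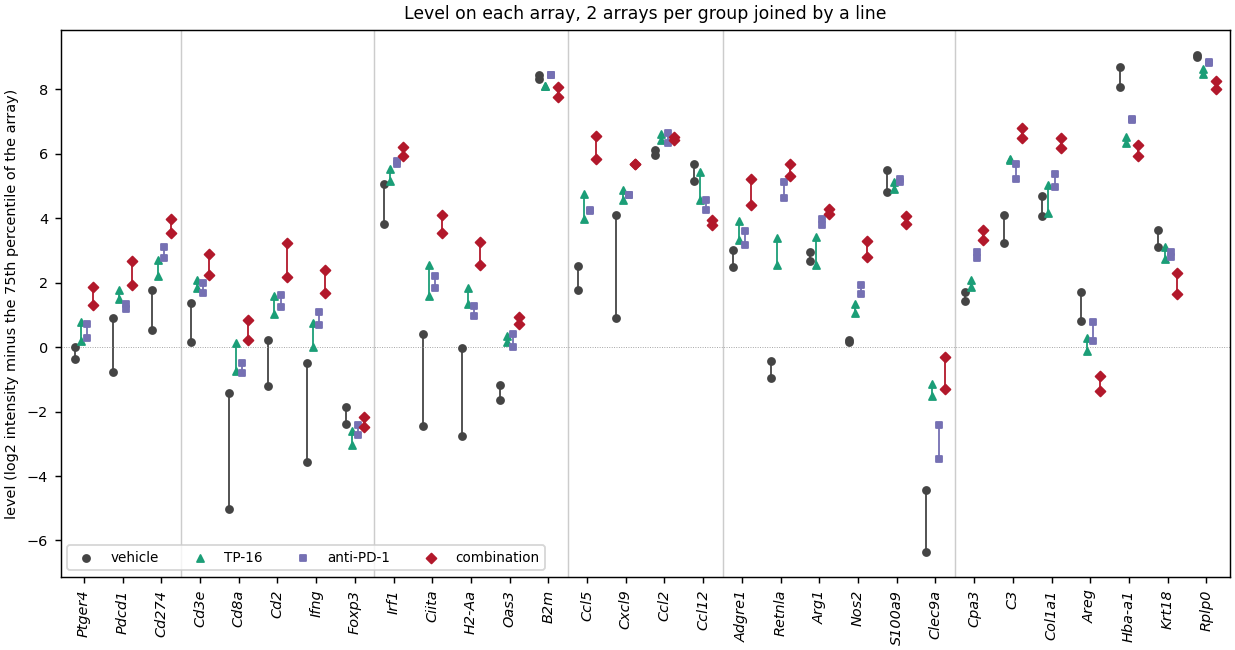
Level on each array (log2 scale, relative to the 75th percentile) of 30 named genes in the 4 treatment groups, with the 2 arrays of a group joined by a line. Both combination arrays lie above both vehicle arrays for genes such as Ptger4, Irf1, Ccl5, Retnla and C3 and below them for Areg, Hba-a1 and Krt18, and the vehicle arrays lie far apart for Cd8a, Ifng, Ciita and Cxcl9.

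Among genes of the T-cell receptor and its coreceptors, 10 of 17 tested members were called higher and 0 lower, with a median change of 2.77 (9 higher after quantile normalization). The median level of the members was -2.03 and 0.04 on the vehicle arrays and 1.39 and 1.75 on the combination arrays. Cd3e, a chain of the CD3 complex, read 0.15 and 1.35 under vehicle and 2.24 and 2.89 under the combination and rose by 1.81 (standard error 0.43, limma adjusted p = 0.0273). Cd2, an adhesion receptor of T cells and NK cells, went from -1.21 and 0.23 to 2.19 and 3.23 and rose 9.16-fold (limma adjusted p = 0.0139). Themis, needed for T-cell selection in the thymus, was not well above background on either vehicle array and was at least 2.67-fold higher under the combination (limma adjusted p = 0.0105). Cd8a, the coreceptor of cytotoxic T cells, read -5.02 and -1.43 under vehicle and 0.21 and 0.85 under the combination. Only vehicle replicate 2 was above background for Cd8a, and its rise of 3.76 (standard error 1.1, limma adjusted p = 0.0477) lost its call after quantile normalization by the adjusted p, with a change of 3.9 (limma adjusted p = 0.0576). A second Cd8a probe was called with the 75th percentile, with a change of 3.17 (limma adjusted p = 0.0288). Cd4, the coreceptor of helper T cells, read -0.16 and 0.04 under vehicle and 0.19 and 0.51 under the combination, a change of 0.41 (standard error 0.15, limma adjusted p = 0.0881). Vehicle replicate 2 exceeded vehicle replicate 1 at least 2-fold for 14 of the 17 members, against 7.76% of all tested genes. The call was made for 15 members without vehicle replicate 2 and for 10 without vehicle replicate 1, and the median relative to all genes was 3.94 and 1.65 in the same order. Without combination replicate 2 none was called after adjustment and 7 passed at an unadjusted p.

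Costimulatory and cytokine receptors of activated T cells were called higher in 16 of 22 members and lower in 0, with a median change of 1.76 against -0.24 for all genes. Il2rb, the beta chain of the interleukin 2 receptor, went from 0.32 and 2.16 to 3.1 and 3.54 and rose by 2.08 (standard error 0.57, limma adjusted p = 0.0407). Icos, a costimulatory receptor, went from -2.83 and -0.9 to 0.77 and 1.75 and rose 8.69-fold (limma adjusted p = 0.0204). Cd226, an activating receptor that binds nectin family ligands, read -4.14 and -2.83 under vehicle and -0.38 and 0.41 under the combination, was above background on 1 vehicle array, and rose by 3.5 (standard error 0.49, limma adjusted p = 0.0105). Cd27 was dim on both vehicle arrays and at least 4.84-fold higher. Tnfrsf9, which codes 4-1BB, was not called, at 3.83 and 4.13 under vehicle and 4.36 and 4.09 under the combination. The inhibitory receptors and their ligands were called higher in 9 of 13 members. Lag3 went from -4.07 and -1.22 to 0.2 and 0.96, Btla from -4.14 and -3.05 to -0.96 and -0.14, and Tox, a transcription factor of exhausted T cells, from -6.37 and -3.13 to -1.32 and -0.79. In each of these 3 genes only 1 vehicle array was above background. Of the other Tox probes, 1 with a change of 2.09 was called (limma adjusted p = 0.0161) and 1 with a change of 1.14 was not. Cd244a, an NK and T-cell receptor, was the 1 member called lower, with a change of -1.43 (standard error 0.41, limma adjusted p = 0.0467) that lost its call after quantile normalization (limma adjusted p = 0.0519), and its other tested probes had changes of -0.65 and 1.60, neither called. 14 of the 22 activation genes as higher and 1 as lower, and 5 of the 13 inhibitory genes as higher, passed at an unadjusted p, and none after adjustment, without combination replicate 2.

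Cytotoxic effector genes were called higher in 7 of 18 members and lower in 0, with a median change of 1.04. Relative to all genes the median was 1.28, and 0.71 without vehicle replicate 1 and 2.04 without vehicle replicate 2. Ifng read -3.58 and -0.49 under vehicle and 1.67 and 2.38 under the combination, Gzmk, a granzyme of memory T cells, -3.44 and -1.56 under vehicle and 0.00 and 1.16 under the combination, and Nkg7, a protein of cytolytic granules, 0.15 and 2.53 under vehicle and 3.77 and 4.42 under the combination. Their changes were 4.06, 3.08 and 2.76, with limma adjusted p of 0.0276, 0.0338 and 0.0385. Gzma, which codes granzyme A, read 3.0 and 5.17 under vehicle and 5.25 and 5.09 under the combination, where vehicle replicate 2 lay between the combination arrays, and Prf1, which codes perforin, read 0.65 and 2.1 under vehicle and 2.07 and 2.2 under the combination. Neither was called (limma adjusted p = 0.249 and 0.228). The summed level of the effector list was 8.12 and 8.78 on the vehicle arrays and 8.56 and 8.54 on the combination arrays, so that the groups overlapped in the sum. Vehicle replicate 2 exceeded vehicle replicate 1 at least 2-fold for 14 of the 18 members, and 4 were called higher and 2 lower without vehicle replicate 1, against 11 higher and 0 lower without vehicle replicate 2. 4 members passed at an unadjusted p, and none after adjustment, without combination replicate 2.

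NK cell receptors were called higher in 6 of 14 members and lower in 1, Cd244a. Klrc3, of the NKG2 family, went from -4.47 and -2.62 to -0.72 and 0.3, with 1 vehicle array above background, and rose by 3.34 (standard error 0.64, limma adjusted p = 0.0165). Klrc1, which codes the inhibitory receptor NKG2A, was dim under vehicle and at least 2.9-fold higher. Tbx21, which codes the transcription factor T-bet, went from -3.32 and -1.25 to 0.25 and 0.98. The defining receptors Ncr1 and Klrk1 were not called, with changes of 1.11 (standard error 0.42, limma adjusted p = 0.0911) and 2.64 (standard error 0.86, limma adjusted p = 0.0624). Regulatory T-cell genes were called higher in 7 of 10 members, with a median change of 1.43. The members that passed include Ikzf2 (Helios), Ikzf4 and Tnfrsf18 (GITR), with changes of 1.59, 1.46 and 1.63. Another Ikzf2 probe had a change of 0.75 and other Ikzf4 probes 0.62 and 0.3, none of them called, and Tnfrsf18 read -1.16 and 0.24 under vehicle and 1.01 and 1.33 under the combination. Foxp3, the lineage factor of regulatory T cells, read -2.4 and -1.85 under vehicle and -2.49 and -2.17 under the combination, a change of -0.2 (standard error 0.26, limma adjusted p = 0.57), and its estimate was 1.1 with spike-in scaling. Without vehicle replicate 1, 3 of the NK genes and 2 of the regulatory genes were called higher, against 12 and 6 without vehicle replicate 2. Without combination replicate 2 none was called after adjustment, 5 and 5 passing at an unadjusted p.

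Interferon gamma signaling and target genes were called higher in 23 of 31 members (5.58% of all genes were) and lower in 0, with a median change of 2.44. Quantile normalization also gave 23 higher, and 22 members were called in both scalings. Irf1, a transcription factor induced by interferon gamma, read 3.83 and 5.04 under vehicle and 5.93 and 6.2 under the combination and rose by 1.62 (standard error 0.39, limma adjusted p = 0.029), which is 3.08-fold. Ciita, the master activator of MHC class II genes, went from -2.45 and 0.41 to 3.54 and 4.11 and rose 28.7-fold (limma adjusted p = 0.0157). Gbp8, a guanylate-binding protein, and Ido1, which breaks down tryptophan, changed by 3.77 and 4.01, from -3.08 and -0.59 to 1.8 and 2.08 and from -3.63 and -0.19 to 2.4 and 1.8. Other Ciita probes had changes of 1.79 and 4.46, both called. The combination arrays exceeded both vehicle arrays for 29 of the 31 members (23.1% of all genes). Vehicle replicate 2 exceeded vehicle replicate 1 at least 2-fold for 22 of them, with median levels of the list of 1.92 and 3.44 on the vehicle arrays and 4.14 and 4.58 on the combination arrays. Relative to all genes the median change was 2.68, and 1.63 without vehicle replicate 1 and 3.63 without vehicle replicate 2. 16 members passed at an unadjusted p, and none after adjustment, without combination replicate 2.

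Promoters of the interferon genes are shown because interferon signaling is known to act on its targets through 2 short motifs, the gamma interferon activation site (TTCNNNGAA) and the core of the interferon-stimulated response element (GAAANNGAA). The promoter of Areg is shown for the cyclic AMP response element (TGACGTCA) read by CREB. Capitals mark the motif on either strand in the 250 bases before the start of the gene, written 5′ to 3′ along the gene's own strand, from RefSeq on GRCm38.p6.
Irf1, chr11:53769764-53770013, plus strand: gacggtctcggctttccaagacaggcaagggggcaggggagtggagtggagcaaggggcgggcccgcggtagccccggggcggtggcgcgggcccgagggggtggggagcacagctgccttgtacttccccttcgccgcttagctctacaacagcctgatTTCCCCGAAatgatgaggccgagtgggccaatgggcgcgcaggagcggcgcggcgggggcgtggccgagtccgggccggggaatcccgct
Cd274, chr19:29367188-29367437, plus strand: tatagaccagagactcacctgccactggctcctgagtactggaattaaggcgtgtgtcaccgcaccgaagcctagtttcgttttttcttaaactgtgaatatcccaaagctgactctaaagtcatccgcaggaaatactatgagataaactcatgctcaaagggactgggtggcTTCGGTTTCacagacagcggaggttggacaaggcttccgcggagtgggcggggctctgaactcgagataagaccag
Oas3, chr5:120777660-120777909, minus strand: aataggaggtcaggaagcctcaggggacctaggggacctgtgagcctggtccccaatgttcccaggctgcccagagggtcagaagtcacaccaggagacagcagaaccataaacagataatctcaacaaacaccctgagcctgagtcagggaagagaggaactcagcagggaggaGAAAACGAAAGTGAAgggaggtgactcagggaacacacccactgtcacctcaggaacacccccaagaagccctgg
Areg, chr5:91139349-91139598, plus strand: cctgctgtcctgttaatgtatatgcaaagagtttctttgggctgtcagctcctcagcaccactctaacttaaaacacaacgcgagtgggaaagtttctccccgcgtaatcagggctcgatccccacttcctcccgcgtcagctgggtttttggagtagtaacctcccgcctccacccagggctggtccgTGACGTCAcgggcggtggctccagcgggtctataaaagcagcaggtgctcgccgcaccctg
In Oas3, an antiviral synthetase, 2 matches of the response element core overlap. RefSeq promoters, which also reach 50 bases past the start, were found for 19 genes of the interferon gamma list, and the response element core was in 52.6% of these genes, the activation site in 42.1%. Over all 27025 genes with a promoter the shares were 9.76% and 9.55%. Genes called higher in both scalings held the core in 14.9% and the activation site in 11.5% of 803 genes, and genes called lower in both held them in 7.87% and 10.9% of 394 genes. The cyclic AMP response element was in 1.25% of the genes called higher, 1.78% of those called lower, 13.3% of 15 genes of the cyclic AMP list, 3.19% of the 12838 tested genes with a promoter and 2.03% of all. Among the tested genes the response element core was in 8.92% and the activation site in 8.67%. Several members of these lists are paralogs of each other, and a match is a description of the letters only.

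Antiviral genes of the type I interferon response were called higher in 18 of 27 members and lower in 0, with a median change of 1.34, and 65.0% of the 20 with a promoter held the response element core. Oas3 went from -1.65 and -1.18 to 0.71 and 0.93 and rose by 2.23 (standard error 0.22, limma adjusted p = 0.0102). Oasl2 and Stat2 rose 4.11-fold and 3.56-fold, where another, dimmer Stat2 probe had a change of -1.24 and was not called, and Mx1, a GTPase that acts on viruses, rose from -1.02 and -0.71 to 0.56 and 1.16. Isg15 went from 5.07 and 5.69 to 5.93 and 6.15 and was not called with the 75th percentile (limma adjusted p = 0.0974) but was after quantile normalization, with a change of 1.07 (limma adjusted p = 0.0319). Vehicle replicate 2 exceeded vehicle replicate 1 at least 2-fold for 1 of the 27 antiviral genes. The vehicle arrays were therefore closer together for these genes than for the interferon gamma list. 17 antiviral genes passed at an unadjusted p, and none after adjustment, without combination replicate 2.

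MHC class II genes, which present peptides to helper T cells, were called higher in 8 of 12 members with the 75th percentile and in 10 after quantile normalization. H2-Aa read -2.76 and -0.02 under vehicle and 2.53 and 3.26 under the combination and rose by 4.28 (standard error 0.85, limma adjusted p = 0.0179). Cd74, the invariant chain, went from 2.58 and 5.17 to 7.24 and 7.63 and rose 11.8-fold (limma adjusted p = 0.0227). H2-Ea, outside the list, was among the largest rises of all genes, from -2.11 and 0.54 to 3.12 and 3.83. H2-Ab1 went from 3.29 and 6.24 to 7.66 and 7.65, and its change of 2.89 (standard error 0.88, limma adjusted p = 0.0521) passed only after quantile normalization (limma adjusted p = 0.0377), while 2 of its 3 other probes, with changes of 3.54 and 3.93, were called with the 75th percentile (limma adjusted p = 0.0325 and 0.0248). The vehicle arrays lay a median of 2.6 apart for this list, and vehicle replicate 2 was the higher for all 12 members. 5 class II genes passed at an unadjusted p, and none after adjustment, without combination replicate 2.

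MHC class I and peptide loading genes were called higher in 2 of 17 members (5.58% of all genes were), Tap2 and Tapbpl, and in 5 after quantile normalization. Tap2, a subunit of the peptide transporter, went from 3.7 and 4.91 to 5.79 and 6.09 and rose by 1.64 (standard error 0.38, limma adjusted p = 0.0256), while Tapbpl lost its call after quantile normalization (limma adjusted p = 0.0589). Tap1, the other subunit, read 2.27 and 3.97 under vehicle and 4.68 and 4.79 under the combination (limma adjusted p = 0.0584, and 0.0481 after quantile normalization, where it was called), and a second Tap1 probe was called with the 75th percentile, with a change of 1.86 (limma adjusted p = 0.0399). B2m, the light chain of class I molecules, had a change of -0.47 with the 75th percentile, 0.36 after quantile normalization and 0.83 with spike-in scaling, so its direction depended on the scaling. A second B2m probe had a change of 0.74 with the 75th percentile, and neither was called. Without vehicle replicate 2, 9 class I genes were called and 1 without vehicle replicate 1. 1 passed at an unadjusted p (4.39% of all genes did as higher), and none after adjustment, without combination replicate 2.

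Chemokines and receptors that draw T and NK cells were called higher in 11 of 19 members and lower in 0. Ccl5, a chemokine that draws T cells, read 1.78 and 2.5 on the vehicle arrays and 5.83 and 6.55 on the combination arrays. It rose 16.6-fold, a change of 4.36 after quantile normalization (limma adjusted p = 0.0114). Cxcl9, a ligand of CXCR3 induced by interferon gamma, went from 0.89 and 4.11 to 5.68 and 5.68 and rose by 3.18 (standard error 0.95, limma adjusted p = 0.0497). Cxcr6, a receptor of resident T cells, and Cxcl13, which draws B cells and follicular helper T cells, rose 10.6-fold and 10-fold, from -1.32 and 1.07 to 2.83 and 3.73 and from -3.27 and -1.37 to 1.21 and 0.8. Without vehicle replicate 1 their changes of 3.41 and 3.33 became 2.21 and 2.38. Chemokines and growth factors of myeloid cells moved both ways, with 3 of 20 called higher and 3 lower (5.58% and 8.62% of all genes were). Ccl8, Ccl11 and Cxcl12 rose by 1.32, 1.65 and 1.8. Ccl12, a ligand of CCR2, read 5.67 and 5.16 under vehicle and 3.8 and 3.94 under the combination and fell 2.92-fold (limma adjusted p = 0.0205), also after quantile normalization, with an estimate of -0.24 when arrays were scaled by spike-ins. Cxcl1 and Ppbp, both ligands of CXCR2, had called changes of -1.07 and -1.22 and lost their calls after quantile normalization by the adjusted p, with changes of -1.05 and -1.14 (limma adjusted p = 0.0552 and 0.0696). Ccl2, another CCR2 ligand, read 6.1 and 5.96 under vehicle and 6.41 and 6.52 under the combination and was not called. The myeloid list held 1 member called higher and 0 lower without vehicle replicate 1 and 1 higher and 2 lower without vehicle replicate 2, and without combination replicate 2, 11 members of the T-cell list passed as higher at an unadjusted p, 3 of the myeloid list as higher and 2 as lower, and none after adjustment.

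**Figure D2:**
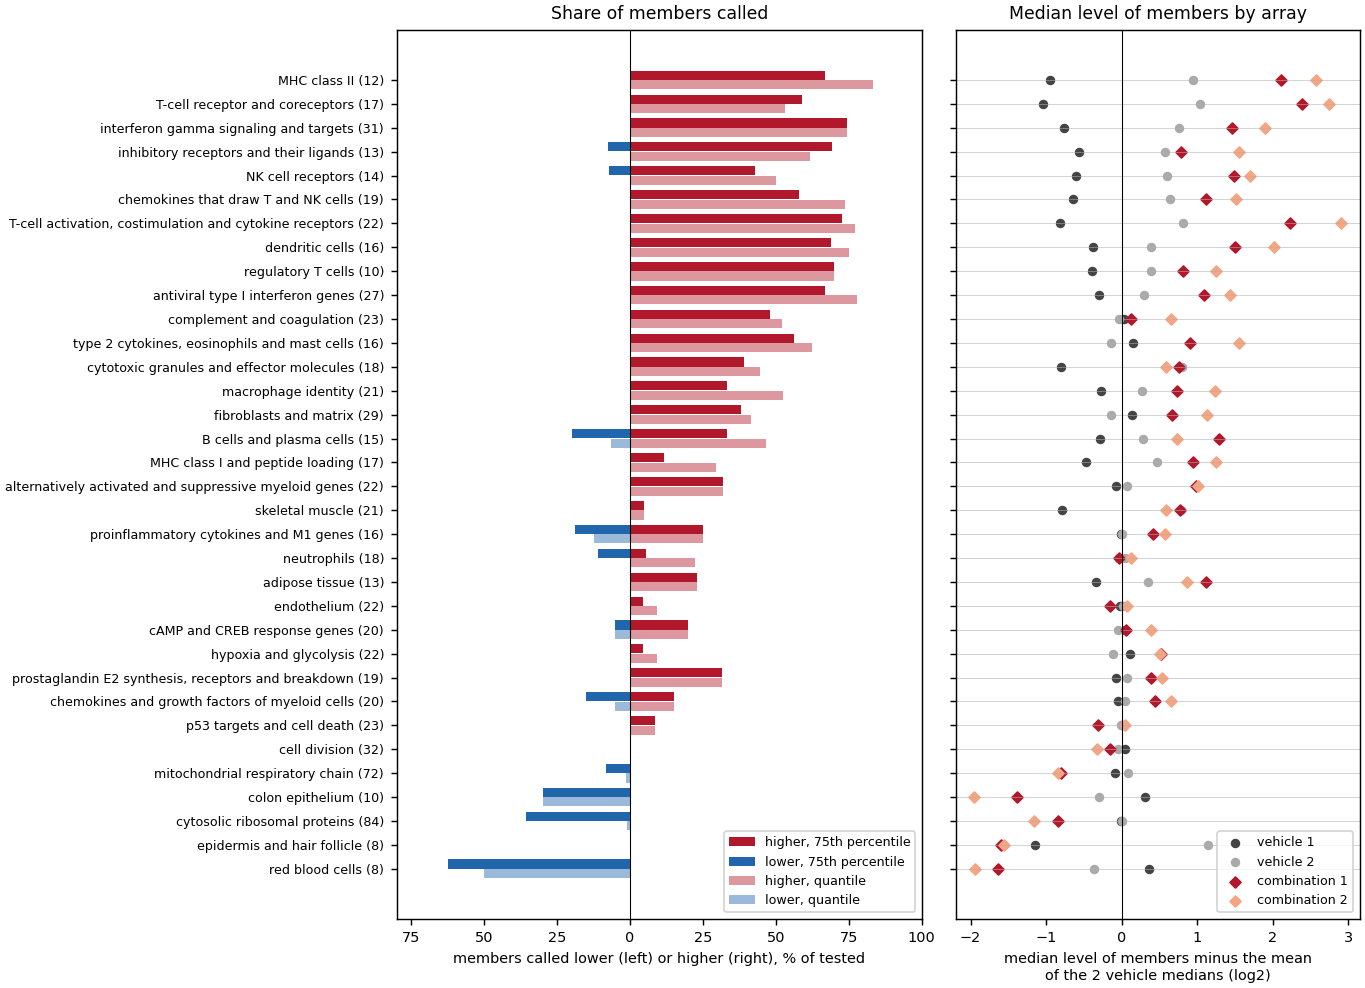
Left, share of tested members (number in brackets) of 34 gene lists called higher or lower under the combination, with the 75th percentile (dark) and after quantile normalization (pale). Right, median level of the members on each of the 4 arrays minus the mean of the vehicle medians (log2); the lists are ordered by median change, with MHC class II at the top and red blood cells at the bottom.

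Macrophage identity genes were called higher in 7 of 21 members with the 75th percentile and in 11 after quantile normalization. Adgre1, which codes F4/80, went from 2.5 and 3.0 to 4.4 and 5.22 and rose by 2.06 (standard error 0.36, limma adjusted p = 0.014). Mertk, a receptor for dying cells, and Fcgr1, an activating Fc receptor, rose 2.32-fold and 2.58-fold, Fcgr1 with the 75th percentile only. Csf1r, the receptor that keeps macrophages alive, read 5.06 and 5.42 under vehicle and 5.93 and 6.43 under the combination, a change of 0.94 (standard error 0.23, limma adjusted p = 0.0285) that fell short of the fold of 2 with the 75th percentile and passed after quantile normalization (1.37). The summed level of the macrophage list was 10.41 and 10.61 on the vehicle arrays and 10.45 and 10.63 on the combination arrays, and the groups overlapped in it. Without vehicle replicate 1, 2 of the 21 members were called and without vehicle replicate 2 11. 1 passed at an unadjusted p, a share near the 4.39% of all genes, and none after adjustment, without combination replicate 2.

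Genes of alternative activation and suppression were called higher in 7 of 22 members and lower in 0. The 7 include Ido1, also a member of the interferon gamma list, and Pdcd1lg2, also a member of the inhibitory list. Retnla, a secreted product of alternatively activated macrophages, had the largest fitted rise of any gene under the naming rule, from -0.96 and -0.44 on the vehicle arrays to 5.3 and 5.69 on the combination arrays. Its change was 6.19 (standard error 0.35, limma adjusted p = 0.0102), which is 73-fold, and its vehicle arrays lay close together. Arg1, an arginase of the same cells, went from 2.95 and 2.66 to 4.12 and 4.28 and rose 2.62-fold (limma adjusted p = 0.0211). Mrc1, which codes the mannose receptor CD206, was not called, at 4.18 and 3.55 under vehicle and 3.44 and 3.86 under the combination, and its estimate of -0.21 became 1.1 with spike-in scaling. Proinflammatory genes were called higher in 4 of 16 members and lower in 3. Nos2, the inducible nitric oxide synthase, went from 0.23 and 0.16 to 2.8 and 3.28 and rose by 2.85 (standard error 0.21, limma adjusted p = 0.0102), and Tnf and Irf5 rose 4.43-fold and 2.67-fold. Il6, Il11 and Lif, cytokines that act through gp130, fell 2.24-fold, 2.3-fold and 2.23-fold, of which Lif lost its call after quantile normalization and all 3 had positive estimates with spike-in scaling (0.15, 0.11 and 0.15), below the median of 1.07 of all genes there. Il1b was not called, at 2.29 and 2.71 under vehicle and 2.33 and 2.36 under the combination. 7 genes of alternative activation passed at an unadjusted p, as did 3 higher and 1 lower proinflammatory genes, and none after adjustment, without combination replicate 2.

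Dendritic cell genes were called higher in 11 of 16 members. Clec9a, a receptor for dead cells on cross-presenting dendritic cells, was dim on both vehicle arrays (-6.36 and -4.43) and read -1.31 and -0.3 under the combination, at least 8.81-fold higher (limma adjusted p = 0.0114). Flt3, the growth factor receptor of dendritic cells, went from -3.79 and -3.47 to -1.09 and -0.24, and Wdfy4, needed for cross-presentation, from 0.8 and 1.5 to 2.86 and 3.42. Xcr1, another marker of the same dendritic cells, was dim on both vehicle arrays and called only after quantile normalization, with an estimate of -0.12 after normexp background correction. Genes of type 2 cytokines, eosinophils and mast cells, the mast cell and eosinophil list below, were called higher in 9 of 16 members. Cpa3, a protease of mast cell granules, read 1.44 and 1.7 under vehicle and 3.31 and 3.64 under the combination and rose by 1.91 (standard error 0.18, limma adjusted p = 0.0102). Tpsab1, a tryptase, rose 3.7-fold from 0.24 and 0.55 to 2.05 and 2.52, and Siglecf, a receptor of eosinophils, was at least 3.03-fold higher. Il4, Il5, Epx and Prg2 of this list were left out as dim, with no group above background on both of its arrays. The lowest change of the list was -0.92, for the cytokine gene Il13. Neutrophil genes were called higher in 1 of 18 members (5.58% of all genes were), Hdc, whose other tested probes had changes of -1.22 and 1.53, and lower in 2 (8.62% of all genes were), S100a8 and S100a9. After quantile normalization 4 were higher and 0 lower, 0 were higher and 2 lower without vehicle replicate 1, and 3 were higher and 0 lower without vehicle replicate 2, so the balance of the neutrophil calls turned with the scaling and with the vehicle array left out. S100a9, a calcium-binding protein of neutrophils and monocytes, read 4.8 and 5.5 under vehicle and 4.08 and 3.82 under the combination, a fall of 2.3-fold that lost its call after quantile normalization (-0.95), as S100a8 did, and both had positive estimates with spike-in scaling (0.11 and 0.22). Ly6g was dim on both vehicle arrays, so it has no measured fold, and was called only after quantile normalization (limma adjusted p = 0.0489), with an estimate of -0.34 after normexp background correction. 10 dendritic, 7 mast cell and eosinophil and 1 neutrophil genes passed as higher at an unadjusted p, 2 neutrophil genes as lower, and none after adjustment, without combination replicate 2.

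B-cell and plasma-cell genes moved both ways. Of 15 tested members 5 were called higher and 3 lower with the 75th percentile, and 7 higher and 1 lower after quantile normalization. Jchain, which joins secreted antibody units in plasma cells, went from -3.26 and -1.61 to 1.51 and 1.56 and rose by 3.97 (standard error 0.58, limma adjusted p = 0.0107), and Mzb1, a chaperone of plasma cells, rose 6.75-fold, with 1 vehicle array above background. Fcrla was at least 4.92-fold higher. Ms4a1, which codes CD20 on mature B cells, read -1.18 and -1.22 under vehicle and -3.03 and -4.37 under the combination and fell 5.67-fold, with a change of -2.29 after quantile normalization, where it was also called, although its dimmer second probe had a change of 0.63 and was not called. Cd79a and Pax5, a chain of the B-cell receptor and the B-cell lineage factor, were called lower with the 75th percentile and not after quantile normalization, where Cd79a fell short of the fold of 2 (limma adjusted p = 0.0202) and Pax5 of the adjusted p (limma adjusted p = 0.0851), and Cd79a was dim on both combination arrays. 5 of these genes passed as higher and 3 as lower at an unadjusted p, and none after adjustment, without combination replicate 2.

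In a list of prostaglandin synthesis, receptor and breakdown genes, 6 of 19 were called higher and 0 lower, with a median change of 0.13. The list holds genes of prostaglandin E2 and of other prostanoids, such as Ptgds, Ptgis and Tbxas1. Ptger2, the EP2 receptor that also raises cyclic AMP, went from -3.17 and -2.29 to -0.91 and -0.35 and rose by 2.1 (standard error 0.33, limma adjusted p = 0.0113). Hpgd, the enzyme that inactivates prostaglandin E2, went from -3.63 and -2.95 to -1.36 and -0.91 and rose 4.45-fold (limma adjusted p = 0.0104). Ptgs2, the inducible cyclooxygenase, was not called, at 2.71 and 2.21 under vehicle and 2.68 and 2.51 under the combination. Genes that cyclic AMP and CREB are known to induce were called higher in 4 of 20 members and lower in 1. Fos, Gem and Atf3 rose by 1.25, 1.35 and 1.64, with Fos at 0.8 and 1.18 under vehicle and 2.28 and 2.2 under the combination. Areg, an EGF receptor ligand whose promoter holds the cyclic AMP response element shown above, read 1.7 and 0.8 on the vehicle arrays and -0.89 and -1.35 on the combination arrays and fell 5.16-fold (limma adjusted p = 0.0114), with a fall in both scalings and an estimate of -1.06 with spike-in scaling. Nr4a1 and Crem, both direct CREB targets, were not called, and the estimate of Nr4a1 was -0.05 with the 75th percentile, 0.02 after quantile normalization and 1.25 with spike-in scaling. Without vehicle replicate 1, 2 of the cyclic AMP genes were called higher and 2 lower, and without combination replicate 2, 6 prostaglandin and 3 cyclic AMP genes passed as higher and 1 cyclic AMP gene as lower at an unadjusted p, and none after adjustment.

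Complement and coagulation genes were called higher in 11 of 23 members. C3, the central complement component, went from 3.22 and 4.1 to 6.47 and 6.79 and rose by 2.98 (standard error 0.32, limma adjusted p = 0.0102), and C2 and Fgl2, a prothrombinase of myeloid cells, rose by 2.68 and 3.42. Fibroblast and matrix genes were called higher in 11 of 29 members. Col1a1, a chain of collagen I, went from 4.69 and 4.07 to 6.17 and 6.49 and rose 3.87-fold (limma adjusted p = 0.0153), Fbn1 (fibrillin) went from 0.44 and 0.08 to 2.16 and 2.51, and Postn (periostin) from 1.69 and 0.96 to 3.11 and 3.5. Vehicle replicate 2 was above vehicle replicate 1 in 2 of the 29 genes. Fap, a protease of tumor fibroblasts, had a change of 1.41 (standard error 0.48, limma adjusted p = 0.0718) and was not called, although a second, dimmer Fap probe was, with a change of 1.7 (limma adjusted p = 0.0335). Without vehicle replicate 2, 5 fibroblast genes were called, and without combination replicate 2, 11 complement and 8 fibroblast genes passed at an unadjusted p and none after adjustment.

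Genes of tissues around a tumor were counted as a check of what the samples held. Endothelial genes were called higher in 1 of 22 members (5.58% of all genes were), Vwf, which lost its call after quantile normalization, where 2 other members were called higher, and Pecam1 and Kdr were not called (0.47 and 0.56). Lpl, Cd36 and Pparg, genes of lipid handling that macrophages also use, rose 14.3-fold, 4.88-fold and 2.25-fold among 13 adipose genes, and the 5 other tested probes of Lpl had changes from -0.46 to 3.57. Adipoq and Plin1, the defining genes of fat cells, were not called, with Adipoq at -3.4 and -1.6 under vehicle and -2.63 and -2.25 under the combination. Of 21 skeletal muscle genes 1 was called, Ttn, whose other tested probes had changes of -0.01, 0.95 and -1.03, none of them called. Vehicle replicate 2 was above vehicle replicate 1 for all 21 muscle genes, at least 2-fold for 15, and the summed level of the muscle list was 5.98 and 6.82 on the vehicle arrays and 6.52 and 6.52 on the combination arrays. Acta1 and Ckm were not called. Relative to all genes the median change of the muscle list was 0.8, and 0.25 to 1.65 when 1 of the 4 arrays was left out. No epidermal gene was called among 8 tested (limma, with 0 at an unadjusted p no higher than 0.05 and 1 by the unmoderated t-test of the study's methods), and Krt14 and Krt5 stood high on TP-16 replicate 2 and anti-PD-1 replicate 2, with Krt14 at -4.06 and 3.8 with TP-16 alone and -3.45 and 4.22 with anti-PD-1 alone. The part of these tissues in other results was not tested.

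Hemoglobin genes were lower. Of 8 tested red blood cell genes 5 were called lower and 0 higher, with a median change of -1.75 against -0.24 for all genes, and 4 were called lower after quantile normalization. Hba-a1, an alpha globin, read 8.68 and 8.07 on the vehicle arrays and 5.93 and 6.27 on the combination arrays and fell 4.85-fold (limma adjusted p = 0.0102). Hbb-b1 and Hbb-b2, beta globins, fell 5.67-fold and 5.57-fold, and Alas2, the heme synthesis enzyme of red cell precursors, fell 3.97-fold. The globin copies are nearly alike in sequence, so their probes may read each other's transcripts. With spike-in scaling 2 of the list stayed called lower, and the estimates were -0.97 for Hba-a1 and -1.2 for Hbb-b1. 5 passed as lower at an unadjusted p, and none after adjustment, without combination replicate 2.

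Of 17 written colon epithelial genes only 10 were tested. Epcam, Cdx1, Vil1, Muc2, Lgr5, Tff3 and Cldn3 were left out as dim, with no group above background on both of its arrays. Called lower were Krt18, Cdx2 and Cldn4, and none was called higher. Krt18, a keratin of simple epithelia, read 3.64 and 3.1 under vehicle and 2.29 and 1.66 under the combination and fell 2.63-fold (limma adjusted p = 0.0196), with an estimate of -0.09 with spike-in scaling. Cdx2, the intestinal lineage factor, and Cldn4, a tight junction protein, were dim on both combination arrays and at least 6.9-fold and 5.07-fold lower. Cell division genes were not called in either direction (limma, 0 of 32, also 0 after quantile normalization), while 14 had an unadjusted p no higher than 0.05 by limma whatever their fold and 8 by the methods' t-test, none of the 14 with a fold of 2. Mki67 and Top2a, both genes of dividing cells, had changes of 0.34 and 0.38, and the median change of the list, -0.26, was close to the -0.24 of all genes. Of 22 hypoxia and glycolysis genes only Pfkp was called, higher by 1.08 (standard error 0.14, limma adjusted p = 0.0102), a share near the 5.58% of all genes. Car9 and Slc2a1 were not called. Of 23 p53 targets Pmaip1 and Trp53inp1 were called higher (1.11 and 1.18), where 5.58% of all genes were. Relative to all genes the median change of the p53 list was 0.12, and -0.01 to 0.18 when 1 of the 4 arrays was left out. A second Trp53inp1 probe had a change of 0.05 and was not called. Cdkn1a, a cell cycle inhibitor, had a change of -0.55 that turned to 0.76 with spike-in scaling and was not called. The brightest probe named Fas is placed on chromosome 4 by the array annotation while the RefSeq promoter of Fas lies on chromosome 19, so its change of -0.8 (0.51 with spike-in scaling) may not be that of Fas. Another probe named Fas met the call, with a change of 1.20 (limma adjusted p = 0.0134). 3 epithelial genes and 1 p53 target passed as lower and 0 p53 targets as higher at an unadjusted p, and none after adjustment, without combination replicate 2.

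The calls of ribosomal protein and respiratory chain genes depended on the scaling. With the 75th percentile, 30 of 84 cytosolic ribosomal protein genes were called lower (8.62% of all genes were). Both combination arrays lay below both vehicle arrays for 82 of them, and for 50.4% of all genes. After quantile normalization 1 was called, Rpl37, with a median change of -0.08 in place of -0.97, and with spike-in scaling the median was 0.34. Rplp0 read 9.0 and 9.06 under vehicle and 8.26 and 8.0 under the combination, a change of -0.9 that turned to 0.02 after quantile normalization and 0.41 with spike-in scaling. Rpl22l1, a paralog of Rpl22, fell 2.62-fold and had an estimate of -0.76 after quantile normalization, short of the fold of 2. Respiratory chain genes were called lower in 6 of 72 members with the 75th percentile, where 8.62% of all genes were, and in 1 after quantile normalization, where 3.94% were, so neither share exceeded that of all genes, and they had a median of 0.63 with spike-in scaling. The gene called in both scalings was Ndufa4, a subunit tied to complex IV, which read 5.57 and 5.44 under vehicle and 4.06 and 4.1 under the combination and fell 2.69-fold. Uqcrq, of complex III, went from 7.93 and 8.04 to 6.79 and 6.59, with estimates of -0.66 and 0.01 after quantile normalization and spike-in scaling. 6 ribosomal and 5 respiratory chain genes passed as lower at an unadjusted p, shares near the 6.14% of all genes, and none after adjustment, without combination replicate 2.

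The 10 largest fitted rises under the naming rule were Retnla, Myh3, Ciita, Clec9a, Inpp5j, H2-Aa, H2-Ea, Ifng, Ccl5 and Ido1. Myh3 and Clec9a were dim on both vehicle arrays, so their rises are bounds with no measured place in this order. Myh3, the embryonic myosin heavy chain, read -6.35 and -4.77 under vehicle and -0.62 and 0.54 under the combination, at least 15-fold higher, while the muscle list held 1 called gene. Inpp5j, a lipid phosphatase, went from -4.81 and -2.4 to 0.4 and 1.24, with 1 vehicle array above background. The 10 largest fitted falls among genes called in both scalings were Rxfp2, Col10a1, Cdrt4os1, Acmsd, Ostn, Atp13a4, Ranbp17, Olfr1415, Prr32 and Dmrtb1. All 10 were dim on both combination arrays, so their falls are bounds, from at least 2.99-fold to at least 8.16-fold, and have no measured order among themselves or against other genes dim under the combination, such as Cdx2. Rxfp2, a relaxin family receptor, read -0.48 and -3.01 on the vehicle arrays and -6.87 and -7.18 on the combination arrays and was at least 8.16-fold lower. Col10a1, a collagen of growth plate cartilage, read -0.76 and -3.29 on the vehicle arrays and was at least 6.71-fold lower. Ostn, a secreted peptide of bone and muscle, read -1.82 and -2.21 there and was at least 6.76-fold lower. Rxfp2 read -6.9 and -7.06 with TP-16 alone and -6.24 and -6.28 with anti-PD-1 alone, and its vehicle arrays lay over 2-fold apart. Without combination replicate 2 none of the 20 was called after adjustment.

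**Figure D3:**
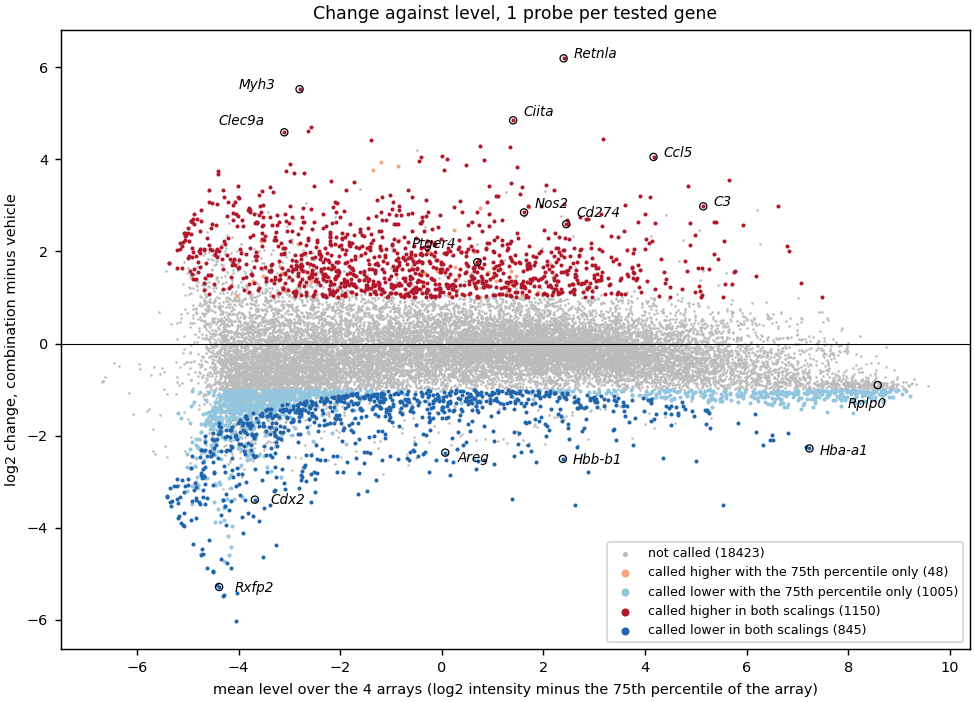
Change (combination minus vehicle, log2) against mean level over the 4 arrays for 21471 tested genes, 1 probe each; dark points were called in both scalings and pale points with the 75th percentile only. Rises were called at all levels, among them Clec9a and Myh3 at dimmer levels and Retnla, Ciita, Ccl5 and C3 at brighter ones. The falls called with the 75th percentile only crowd at the dimmest and brightest levels.

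Falls and rises differed in brightness and in the kind of transcript. Of the 1620 probes called higher, 1550 were also called after quantile normalization, and 292 were dim on both vehicle arrays. Of the 2384 called lower, 1051 were also called after quantile normalization, and 444 were dim on both combination arrays. In the dimmest of 5 equal bins of the tested probes 992 were called lower and 304 higher, and after quantile normalization 296 were lower and 746 higher, so the majority turned with the scaling. Vehicle replicate 2 exceeded vehicle replicate 1 by a median of 0.32 (log2) in that bin. Probes designed on RefSeq messenger RNAs were called higher for 1034 of 13931 genes (7.42%) and lower for 656 (4.71%), and after quantile normalization for 1295 and 313. Probes on RefSeq noncoding RNAs were called higher for 22 of 1376 genes (1.6%) and lower for 290 (21.1%), and after quantile normalization for 54 and 165. Genomic intervals without a transcript name were called lower in 324 of 1922 (16.9%) and higher in 19, and after quantile normalization in 157 and 45. The median vehicle level was -2.2 for the noncoding and 1.22 for the messenger RNA probes, and the part of signal near background in these falls was not tested.

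**Figure D4:**
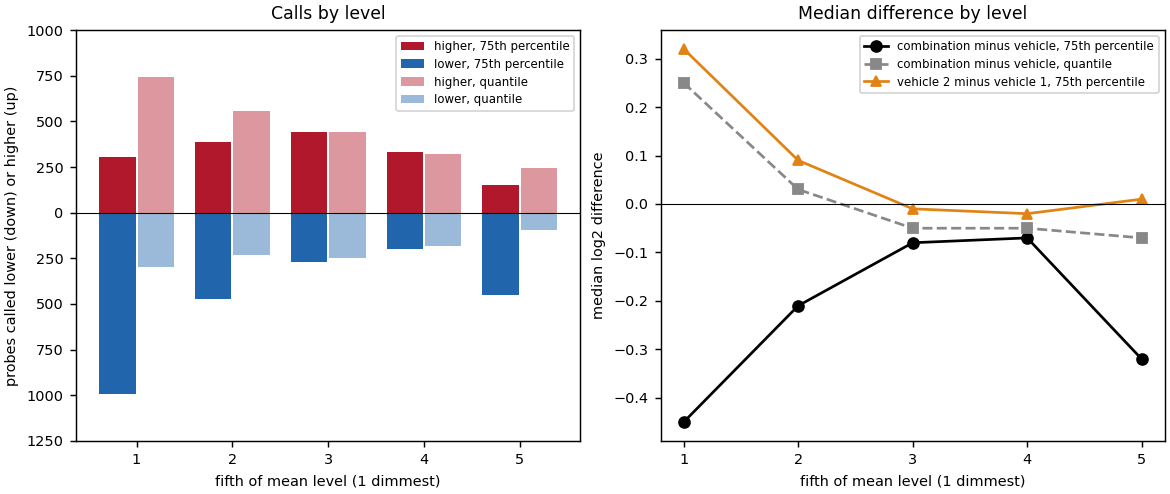
Left, probes called higher (up) or lower (down) in 5 bins of mean level with the 75th percentile and after quantile normalization. Right, median difference between combination and vehicle under both scalings and between the vehicle arrays; in the dimmest bin the median is -0.45 with the 75th percentile and 0.25 after quantile normalization, and the vehicle arrays differ by 0.32.

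The remaining arrays of the series come from tumors that had received TP-16 alone or anti-PD-1 alone. Retnla read 2.53 and 3.38 with TP-16 alone and 5.11 and 4.64 with anti-PD-1 alone, and Nos2 read 1.34 and 1.05 and 1.93 and 1.65 in the same order. Directly tested, the combination exceeded TP-16 alone by 2.54 for Retnla (limma adjusted p = 0.103) and anti-PD-1 alone by 0.61 (limma adjusted p = 0.318). For Ptger4 these differences were 1.1 and 1.09 (limma adjusted p = 0.145 and 0.109). No gene was called between the combination and TP-16 alone (limma, 0% of 21471), where 1386 probes had a 2-fold difference with an unadjusted p no higher than 0.05 and 7131 had any difference at that p. Between the combination and anti-PD-1 alone 3 were called (0.014%), Dgki, Htr5a and the clone A230055C15, named after their values were seen, all lower under the combination.

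**Figure D5:**
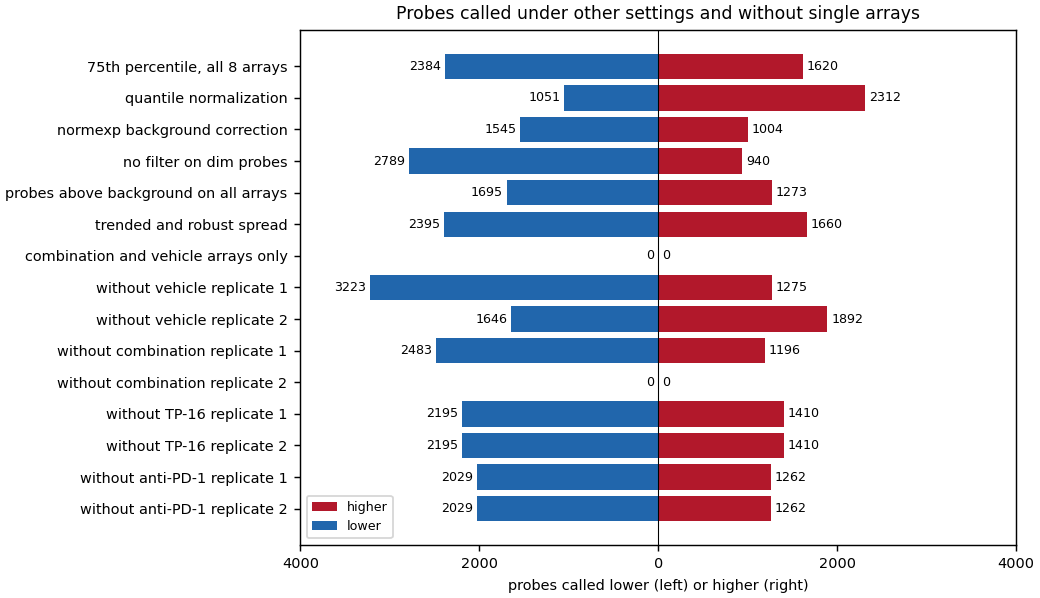
Probes called higher (right) or lower (left) between combination and vehicle with the 75th percentile and all 8 arrays, under other settings, and without each array in turn. The count falls to 0 without combination replicate 2 and when the vehicle and combination arrays alone are fitted, and among the fits that leave out 1 array the most probes are called lower without vehicle replicate 1 (3223 of 4498 called).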

How the data were processed

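RNA from 8 tumor samples was labeled with Cy3 and hybridized to 1-color Agilent mouse arrays, all on 1 slide in 1 scan. RNA extraction is given as TRIzol in the methods and as a mirVana kit in the labels. The authors deposited the spot intensity from Agilent Feature Extraction 10.7.1.1 (submitters' processing notes), subtracted for background and not normalized between arrays. A deposited table holds log2 values that share 1 distribution, as quantile normalization gives, and the methods name GeneSpring without the kind of normalization. That table was used as an alternative.

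Intensities were put on the log2 scale and the 75th percentile of each array subtracted, after 959 spots marked as outliers were dropped, which left 56567 probes. A probe was tested if some group had it well above background on each of its 2 arrays (31912 probes), and "dim" means not well above background. limma 3.58.1 in R 4.3.3 fitted a mean for each of the 4 groups over all 8 arrays, with 4 residual degrees of freedom and Benjamini-Hochberg adjustment over all tested probes. The single-agent arrays thus enter the estimate of the spread. Array signal has no counting depth, and 2 arrays per group limit the precision. Between 51.4 and 59.7% of the probes were above background on each array, and none was saturated. A bound ("at least") sets the bright group's mean against the dim group's detection floor. Probe positions and names come from the array's annotation, 59.9% of the probes were named through a RefSeq accession, and promoters were matched by symbol. The code was tested on simulated data.

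Named genes were the defining genes of 34 lists, up to 3 called members per direction of each list that kept their direction after quantile normalization, the 10 largest rises and falls called in both scalings with groups that did not overlap and a symbol that is no clone name, and both treatment targets. Other members are named to account for a list's calls, and some genes that the rule takes are not reported here. Members and lists were chosen with earlier results of these data known. Alternatives comprised quantile and spike-in scaling, normexp background correction, 2 other filters, 1 probe per gene, a replicate block, the deposited log2 values, the 2 groups alone, a trended spread, the methods' t-test, other thresholds and leaving out each array. Quantile normalization without each of the vehicle and combination arrays was added after seeing the data.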

Additional observations from a re-analysis of the deposited data

How the results depend on the processing

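Against 4004 calls (1620 higher, 2384 lower), the totals under the alternatives were 3363 probes after quantile normalization (1051 lower), 17925 with spike-in scaling (17685 higher, 240 lower), 2549 with normexp background correction (1004 higher, 1545 lower), 3367 from the authors' log2 values (1050 lower), 3729 with no filter on dim probes (940 higher, 2789 lower), and 8183 at a fold of 1.5 (5770 lower). Of the 4004 probes, 1550 higher and 1051 lower were also called after quantile normalization. The vehicle and combination arrays alone gave 0 (limma, 11919 at an unadjusted p of at most 0.05, smallest adjusted p 0.0635), where 2 residual degrees of freedom remain, and the methods' t-test 0 after adjustment and 2255 unadjusted (772 higher, 1483 lower). Leaving out 1 array gave 0 to 4498 calls (0 to 1892 higher, 0 to 3223 lower), the 0 without combination replicate 2, and with quantile normalization 0 to 5174 (0 to 3563 higher, 0 to 1611 lower), with 1953 (729 lower) without combination replicate 1 and 3172 (933 lower) without vehicle replicate 2. The cause was not tested. Of 119 called named genes, 102 were called the same way after quantile normalization, 103 with normexp, 99 with spike-in scaling, 96 and 104 without vehicle replicates 1 and 2, 77 and 0 without combination replicates 1 and 2, and 0 in the fit of the 2 groups alone.

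Spike-in scaling moves all changes by the same amount, so the genes whose sign it turns are those with the smaller falls. Named genes whose estimate changed sign with spike-in scaling were B2m (0.83), Cdkn1a (0.76), Cxcl1 (0.24), Fas (0.51), Foxp3 (1.1), Il11 (0.11), Il1b (1.15), Il6 (0.15), Lif (0.15), Mrc1 (1.1), Ndufa7 (0.10), Nr4a1 (1.25), Plin1 (0.69), Ppbp (0.09), Rpl41 (0.06), Rplp0 (0.41), S100a8 (0.22), S100a9 (0.11) and Uqcrq (0.01). After quantile normalization these were B2m (0.36), Nr4a1 (0.02), Plin1 (0.11) and Rplp0 (0.02), from the authors' values B2m (0.37), Nr4a1 (0.02), Plin1 (0.11) and Rplp0 (0.02), and with normexp Adipoq (-0.28), Ly6g (-0.34), Nr4a1 (0.05) and Xcr1 (-0.12). Leaving out 1 array turned the sign of Acta1 (-0.23 to 0.93), Adipoq (-0.84 to 0.96), Ckm (-0.72 to 1.58), Foxp3 (-0.48 to 0.07), Gzma (0.00 to 2.17), Il1b (-0.37 to 0.05), Ly6g (-0.11 to 2.29), Mrc1 (-0.53 to 0.1), Nr4a1 (-0.13 to 0.02), Plin1 (-1.37 to 0.14) and Ptgs2 (-0.11 to 0.38), with the range over these fits in brackets, and after quantile normalization that of Acta1 (-0.04), Adipoq (-0.68), B2m (0.31, 0.33, 0.4 and 0.42), Ckm (-0.72), Foxp3 (0.1 and 0.17), Il1b (0.09), Krt14 (0.01), Mrc1 (0.2 and 0.27), Nr4a1 (0.01, 0.03 and 0.11), Plin1 (0.09, 0.13 and 0.57), Ptgs2 (-0.06) and Rplp0 (0.01, 0.04 and 0.05), with each turned value in brackets. The B-cell list's median relative to all genes turned to -0.68 among probes above background on all arrays, and the ribosomal list's to 0.01 after quantile normalization without vehicle replicate 2.

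Deviations of samples with the same replicate number correlated at -0.193 to 0.29 between groups (0.29 for vehicle and combination), over 0.1 in 4 of 6 pairs of groups, so the numbers were not taken to pair samples. The replicate block gave 3802 calls and kept those of 113 of the 119 named genes. Arrays have no read depth, and dim probes give bounds only.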
